A study of Mus musculus with 16 samples.

Results

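The genes of 10 transcription factors of the RUNX and ETS families were followed in the open chromatin of activated mouse B cells: Runx1 and Runx3, their partner Cbfb, and the ETS genes Ets1, Fli1, Elf1, Elf2, Etv6, Gabpa and Elk4. They were taken by symbol from 55450 genes of the GENCODE annotation of GRCm38 (mm10), and all 10 were found. ATAC-seq, in which the transposase Tn5 inserts sequencing adapters where DNA is accessible, had been run on 8 libraries of splenic B cells from C57BL/6 mice, 4 Brg1fl/+ and 4 Brg1fl/fl, and 1 MACS2 peak list per library was deposited. All 8 libraries carried the CD23-Cre transgene on 1 allele, which acts in mature B cells, so that Brg1fl/+ cells lose 1 allele of Smarca4, the gene of the chromatin remodeler Brg1, and Brg1fl/fl cells lose both. Neither group is therefore wild type. The mice were adult, their B cells had been enriched by removal of CD43+ cells, and the cells were cultured with LPS at 10 μg/mL and IL-4 at 20 ng/mL. The sample labels give 72 hours of culture, the series design 96 hours. Each library was made from 50000 cells, and how many mice stand behind the libraries of a genotype is not stated, so that the spread between libraries may be technical. Merging peaks that overlapped or were adjacent in any of the lists gave 16566 regions. Of these, 12 overlapped the stretch from 1000 bp upstream to 100 bp downstream of a transcription start site of a member (promoter regions), and 14 more lay in the body of a member or within 10 kb of it (other regions). Over all genes there were 10326 promoter regions and 10683 other regions, and 1 region can be a promoter region of one gene and an other region of its neighbour.

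RUNX proteins bind DNA through the Runt domain at the core TGTGGT, and they bind far more tightly as a dimer with core-binding factor β, the product of Cbfb, which itself does not contact DNA. ETS proteins share a winged helix-turn-helix domain that reads a GGAA core, and the flanking bases and the partner protein set which member binds. Both families are used throughout lymphocyte development: Runx1 and Ets1 in early and mature B cells, Runx3 in B and T cell activation, Fli1 and Etv6 in blood progenitors, Elf1 in lymphocytes. Gabpa encodes the DNA-binding subunit of GABP, which works with the subunits of Gabpb1 and Gabpb2, and Elk4 encodes a partner of serum response factor. The comparison of the genotypes asks whether loss of the second Smarca4 allele goes with a difference in open chromatin at the genes of these factors.

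The lists held 6372 to 14614 peaks in Brg1fl/+ and 6271 to 9216 in Brg1fl/fl. The files hold no read totals. The number of fragments stacked at each summit was recovered from the deposited fold and p for 99.8% of peaks of the library with the fewest solved, and its median ran from 18 to 30 per library. The weakest summits called at the level of the library's own background held 5 to 8 fragments, and absence of a peak means only that none was detected at this depth, not that the chromatin is closed. Summit counts of pairs of libraries of the same genotype differed by 0.756 to 1.20 times the variance that sampling alone gives, and those of pairs across genotypes by 1.00 to 1.81 times. By their file naming, libraries 1 and 2 of a genotype form one set and libraries 3 and 4 another, whereas the labels number 4 replicates, which were taken as such. The Smarca4 promoter had a peak in 4 of 4 libraries of each genotype, and peak lists do not show whether an allele was deleted. Among B cell marker genes, the promoters of Ms4a1 and Pax5 were detected in all 8 libraries, Ebf1 in 6 and Cd79a in 1, and those of Cd79b and Cd22 in none. None of the 4 T cell, 2 NK cell, 3 myeloid and 2 erythroid marker promoters was detected in any library. Among activated B cell genes, the promoter of Cd86 had a peak in 1 Brg1fl/+ library and no Brg1fl/fl library, and that of Fas in 4 Brg1fl/+ and 1 Brg1fl/fl libraries. Among plasma cell genes, Sdc1 was detected in 3 Brg1fl/+ and 4 Brg1fl/fl libraries, Prdm1 in 3 and 2, Xbp1 in 2 and 4 and Jchain in none. The part of differentiation state in the results below was not tested.

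The sequences under or beside 6 of the promoter regions are shown as a description, and the comparison of the genotypes does not use them. Those of Runx1 and Runx3 are from genes whose promoter regions were missing from some lists, and further regions of that kind are not shown. The summits of Etv6, Ets1 and Cbfb had the 3 lowest differences, Brg1fl/fl minus Brg1fl/+, and the Elk4 promoter ranked high in every list. The Runx1 stretch has 45.0% G and C, and the others 56.9% to 78.8%. They are stretches of the RefSeq sequence of GRCm38 that lie outside annotated exons, each 5′ to 3′ on the strand of its gene, with capitals marking GGGCGG, the core bound by KLF and SP factors, on either strand.
Runx1 upstream of the distal start, chr16:92826150-92826309, - strand: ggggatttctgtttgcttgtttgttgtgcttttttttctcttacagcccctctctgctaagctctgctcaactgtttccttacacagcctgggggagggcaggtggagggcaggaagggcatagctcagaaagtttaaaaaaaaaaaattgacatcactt
Runx3 upstream of the internal start, chr4:135152336-135152495, + strand: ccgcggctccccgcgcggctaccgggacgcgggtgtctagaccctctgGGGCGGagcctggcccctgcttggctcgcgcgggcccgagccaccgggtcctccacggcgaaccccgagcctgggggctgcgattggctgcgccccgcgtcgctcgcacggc
Cbfb, chr8:105170514-105170673, + strand: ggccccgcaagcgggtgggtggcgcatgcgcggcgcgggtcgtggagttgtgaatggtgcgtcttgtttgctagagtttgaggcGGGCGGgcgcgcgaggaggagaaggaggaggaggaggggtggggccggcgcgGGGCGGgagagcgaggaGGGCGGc
Ets1 upstream of the internal start, chr9:32695862-32696021, + strand: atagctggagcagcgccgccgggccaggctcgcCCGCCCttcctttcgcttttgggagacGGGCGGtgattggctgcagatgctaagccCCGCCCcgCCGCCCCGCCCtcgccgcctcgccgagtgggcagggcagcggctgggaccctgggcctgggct
Etv6, chr6:134035540-134035699, + strand: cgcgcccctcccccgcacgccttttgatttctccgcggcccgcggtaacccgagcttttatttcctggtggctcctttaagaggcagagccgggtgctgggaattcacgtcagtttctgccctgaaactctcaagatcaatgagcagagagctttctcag
Elk4, chr1:132007941-132008098, + strand: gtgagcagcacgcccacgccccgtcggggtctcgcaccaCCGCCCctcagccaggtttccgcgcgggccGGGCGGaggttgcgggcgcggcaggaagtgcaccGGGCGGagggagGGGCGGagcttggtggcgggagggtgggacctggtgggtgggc
The stretches of Cbfb, Ets1 and Elk4 hold the summit, and those of Runx1, Runx3 and Etv6 end at the start site while the summit lies just past it.

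Motifs were searched on both strands within 100 bp of each summit. The ETS core CCGGAAG was found in 1 of the 12 promoter regions, Gabpa, against 17.0% of all promoter regions, and GAGGAAG in 2, Gabpa and Cbfb, against 9.26%. The RUNX core, TGTGGT or TGCGGT, was found in 1, the distal Runx1 start, against 14.2%. These short sites are shown because they are the only matches of these ETS and RUNX strings in the windows searched, which leaves out other sequences around a GGAA core, with capitals marking the match.
Gabpa CCGGAAG read from the other strand, chr16:84835023-84835045, + strand: ggtaagtgCTTCCGGgtccctca
Gabpa GAGGAAG, chr16:84835003-84835025, + strand: aacaggagGAGGAAGtggagggt
Cbfb GAGGAAG, chr8:105170668-105170690, + strand: ggcggcgaGAGGAAGtggcggcc
Runx1 TGTGGT read from the other strand, chr16:92826033-92826054, - strand: cataaacaACCACAgaaccaca
Runx1 TGTGGT read from the other strand, chr16:92826025-92826046, - strand: accacagaACCACAagttgggt
The Gabpa sites lay 5 and 15 bp from the summit, the Cbfb site 82 bp, and the neighbouring Runx1 sites, whose printed stretches overlap, 78 and 86 bp. GGGCGG was found in 7 of the 12 regions against 66.7% of all, the E-box CACGTG in 2 (distal Runx1 and Elf2) against 8.7%, and the cAMP response element TGACGTCA in 0 against 3.45%. Base composition set the regions apart from each other. In the 201-bp window the distal Runx1 region had 45.8% G and C with 2 CpG dinucleotides, the 2nd Elf1 region 49.3% with 2 and the 2nd Runx3 region 50.2% with 5. The other 9 had 56.2% to 79.1%, beside a median of 66.7% and 19 CpG over all promoter regions. These 3 regions were detected in no Brg1fl/fl library, and the Elf1 and Runx3 regions in Brg1fl/+ library 1 alone. They are the only 3 of the 12 detected in Brg1fl/+ alone, beside 22.1% of all promoter regions. With each list cut to its best 6271 peaks by q, these 3 were detected in 0 libraries. The same held for the other Runx1 region and the other Runx3 region. Whether base composition goes with detection was not tested.

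Of the RUNX genes, Cbfb alone had a promoter peak in every library, and no Runx promoter region did. Runx1 is read from a distal and a proximal promoter. The distal region (chr16:92825918-92826319, summit 27 bp past the 5′ end, in the 5′ UTR exon) was detected in 3 of 4 Brg1fl/+ libraries and in 0 of 4 Brg1fl/fl libraries. Its summits stood 8.79, 6.07 and 5.71 times above background in Brg1fl/+ libraries 1, 2 and 4, on 29, 13 and 9 fragments. The weakest peaks called at background level in the Brg1fl/fl lists had folds of 3.37 to 3.93, below these values, and in Brg1fl/+ library 3, which also lacked the peak, 3.89. These are the lowest folds called, on 5 to 8 fragments. Whether a site of equal height would be called in each library was not tested. By q the 3 peaks stood at positions 7493, 9128 and 6926 of their lists, beyond the 6271 peaks of the shortest list, so that with lists of equal length this region was detected in 0 libraries of either genotype. The internal Runx1 region (chr16:92697267-92697506, intronic, 128738 bp downstream of the 5′ end, at a protein-coding start) appeared in 1 library of each genotype, with a fold of 6.18 in Brg1fl/+ library 1 and 6.29 in Brg1fl/fl library 3. ATAC-seq on a population cannot tell fewer cells with an open site from a less open site in every cell. Neither Runx1 region could enter the test of heights, which needs a value in every library.

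Runx3 had no promoter region at its 5′ end. Its peak lay at an internal start (chr4:135152296-135152738, 5′ UTR exon), with the summit 31851 bp downstream of the 5′ end and 7 bp past that start. It was detected in 3 Brg1fl/+ and 2 Brg1fl/fl libraries. The folds were 6.46, 5.74 and 6.17 in Brg1fl/+ libraries 1, 2 and 4 and 6.16 and 5.42 in Brg1fl/fl libraries 1 and 4, so that detected summits overlapped between genotypes. A 2nd intronic region (chr4:135153902-135154209, 416 bp before a non-coding start) was called only in Brg1fl/+ library 1, with a fold of 3.81.

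Cbfb (chr8:105170392-105171137, summit 77 bp upstream of the 5′ end) was detected in all 8 libraries. Its folds were 15.4, 14.9, 9.48 and 14.2 in Brg1fl/+ libraries 1 to 4 and 11.2, 9.07, 10.1 and 9.91 in Brg1fl/fl libraries 1 to 4. In Brg1fl/+, 3 of 4 libraries lay above all Brg1fl/fl libraries, and library 3 lay among them. The means were 13.5 ± 2.72 and 10.1 ± 0.864 (SD, n = 4). On the centred scale used for testing, on which each library's log2 folds are taken relative to their median over promoter regions detected in all libraries, the difference was -0.20 (SE 0.11, 95% interval -0.44 to 0.04, limma adjusted p = 0.319).

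Among the ETS genes, 6 of 7 had a promoter region detected in all 8 libraries, and Fli1 had none in any. Ets1, like Runx3, had no peak at its 5′ end. Its promoter peak lay at a protein-coding start inside the gene (chr9:32695673-32696301, intronic in the longer transcripts). The summit was 59773 bp downstream of the 5′ end and 28 bp before that start. The folds were 14.7, 14.8, 12.2 and 9.91 in Brg1fl/+ libraries 1 to 4 and 11.0, 8.62, 10.6 and 7.84 in Brg1fl/fl libraries 1 to 4. Brg1fl/+ libraries 1 to 3 lay above all Brg1fl/fl libraries, and library 4 lay within their range. The centred difference was -0.23 (SE 0.14, 95% interval -0.52 to 0.05, limma adjusted p = 0.326).

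Etv6, which encodes a transcriptional repressor, had the smallest p of the member promoters. Its region (chr6:134035136-134036107, summit 130 bp past the 5′ end, in the 5′ UTR exon) had folds of 9.16, 8.74, 6.28 and 6.12 in Brg1fl/+ libraries 1 to 4 and of 5.18, 5.05, 5.63 and 5.27 in Brg1fl/fl libraries 1 to 4. Every Brg1fl/+ fold lay above every Brg1fl/fl fold, which held for 1 of the 9 member regions and for 12.4% of all 4593 regions detected in every library. After centring the genotypes overlapped, with -0.59, -0.62, -0.75 and -0.99 in Brg1fl/+ and -1.13, -0.89, -0.99 and -1.10 in Brg1fl/fl on the log2 scale, and no member region was then separated in this direction, against 4.55% of all regions. The centred difference was -0.29 (SE 0.12, 95% interval -0.54 to -0.05), a height ratio of 0.816, and it did not pass the adjustment over all regions (limma adjusted p = 0.154). The summits rested on 12 to 49 fragments in Brg1fl/+ and 8 to 17 in Brg1fl/fl. The 3 promoter regions whose centred heights followed that of Etv6 most closely over the 8 libraries were those of Txndc17 (shared with 4933427D14Rik and Gm43951), Ppp4r4 and Zfp598, with Pearson r of 0.97, 0.93 and 0.92 among 4245 compared, as a description of libraries that share depth and genotype.

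The remaining 4 ETS promoters had centred differences above 0, none past the threshold. The Elf1 promoter (chr14:79480749-79481837, summit 146 bp upstream of the 5′ end) also covers the start of Wbp4 on the other side, and signal cannot be split between them. Its folds were 8.03, 6.83, 8.22 and 8.39 in Brg1fl/+ and 7.33, 7.15, 7.63 and 8.62 in Brg1fl/fl libraries 1 to 4. The ranges overlapped, with Brg1fl/+ library 2 lowest and Brg1fl/fl library 4 highest of the 8. The centred difference was 0.17 (SE 0.13, adjusted p = 0.46 with limma). A 2nd Elf1 region at an internal start (chr14:79515578-79515859) was called in Brg1fl/+ library 1 alone, with a fold of 3.44 on 7 fragments. Elf2 (chr3:51340213-51341670, summit 682 bp upstream) had folds of 8.22, 8.95, 4.29 and 6.46 in Brg1fl/+ and 7.24, 6.07, 6.31 and 6.92 in Brg1fl/fl libraries 1 to 4. The Brg1fl/fl values lay within the spread of the Brg1fl/+ values, and the centred difference was 0.18 (SE 0.14, adjusted p = 0.449 with limma).

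Gabpa (chr16:84834533-84835658, summit 104 bp past the 5′ end) shares its region with Atp5j, the gene of an ATP synthase subunit on the opposite strand, and the signal belongs to both. Its folds were 11.3, 11.0, 7.05 and 9.93 in Brg1fl/+ and 9.44, 8.81, 11.0 and 7.76 in Brg1fl/fl libraries 1 to 4. Both genotypes covered the same range, with a centred difference of 0.13 (SE 0.13, adjusted p = 0.569 with limma). Elk4 (chr1:132007356-132008361, summit 392 bp past the 5′ end and 100 bp before a non-coding start) had folds of 11.8, 12.0, 10.5 and 13.2 in Brg1fl/+ and 10.5, 11.0, 10.9 and 11.6 in Brg1fl/fl libraries 1 to 4. It was the most even of the member promoters in its place in the lists, ranking by q within the first 7.38% to 20.1% of each library's peaks. The centred difference was 0.10 (SE 0.12, adjusted p = 0.663 with limma).

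**Figure D1:**
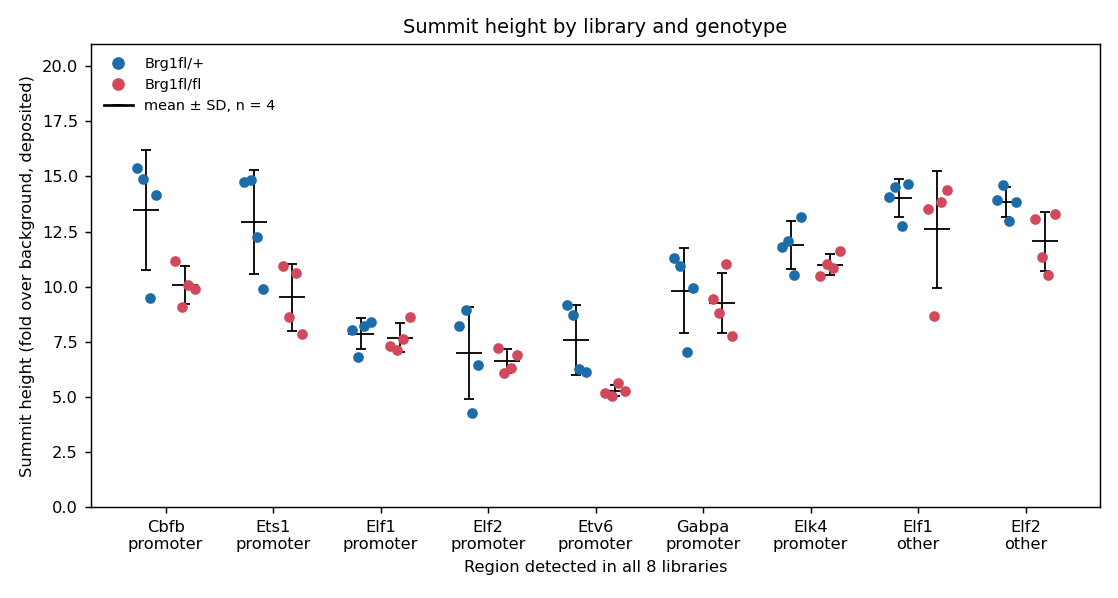
Deposited fold at the summit (y axis) of the 9 member regions detected in all 8 libraries, by genotype; points are libraries, bars the mean and SD of 4. The 4 Brg1fl/fl points of Etv6 sit between 5.05 and 5.63, below all 4 Brg1fl/+ points, as at 12.4% of all regions detected in every library. At every other region shown, Cbfb and Ets1 included, the genotypes overlap, and after centring they overlap at Etv6 too.

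Summit heights of all 4593 regions detected in every library were compared in 1 limma fit, with Benjamini-Hochberg adjustment over all of them and a threshold of 0.05. Between the genotypes, 60 regions were lower in Brg1fl/fl (1.31%) and 75 higher (1.63%). Of the 9 member regions, 7 promoter and 2 other, 0 were called in either direction. An unadjusted limma p under 0.05 was found at 1 of the 9, Etv6, beside 1015 of all 4593 regions. The difference was below 0 in 3 of the 9 and above 0 in 6, with a median of 0.03, beside a median of 0.03 over all regions tested. Standard errors of 0.11 to 0.14 leave wide intervals, which reach down to -0.54 at Etv6 and -0.52 at Ets1 and up to 0.47 at Elf2 on the log2 scale. Without centring, the calls over all regions were 104 lower and 4 higher and the median over all regions moved from 0.03 to -0.17. The signs of the differences at Elf1, Elf2, Gabpa and Elk4 turn under that scaling, whereas those of Cbfb, Ets1 and Etv6 stay below 0.

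**Figure D2:**
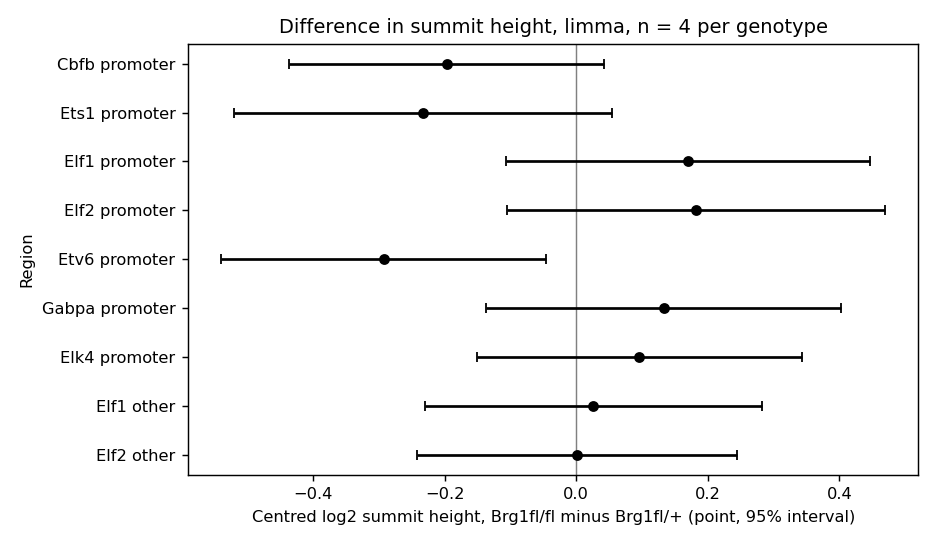
Difference in centred log2 summit height, Brg1fl/fl minus Brg1fl/+ (x axis), for the 9 member regions detected in all libraries (y axis), with 95% intervals from limma, 4 libraries per genotype. The interval of Etv6 runs from -0.54 to -0.05, and the other 8 include 0.

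**Figure D3:**
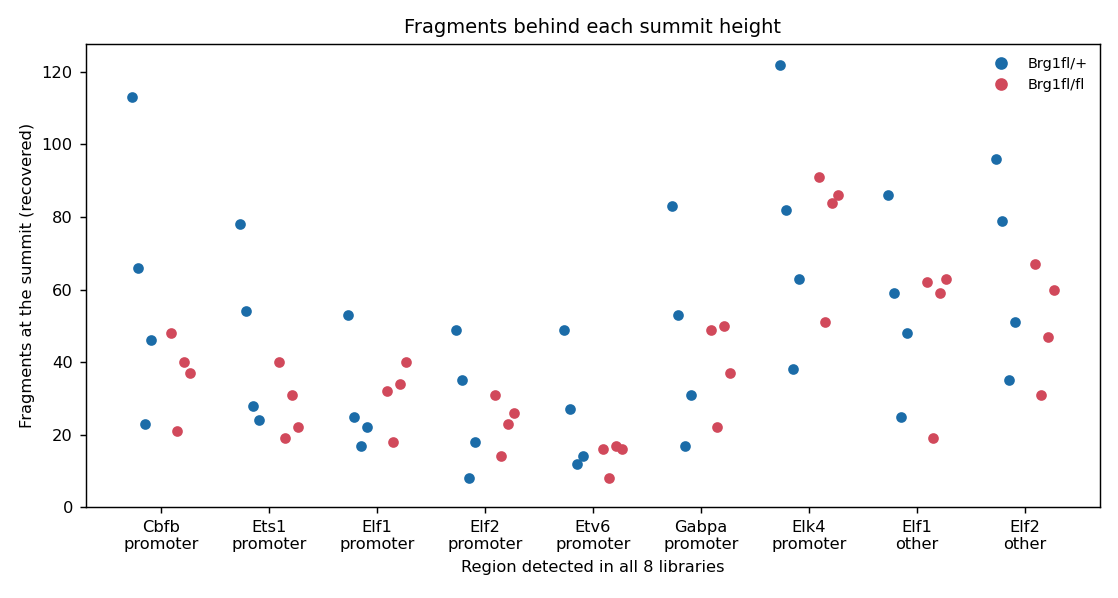
Number of fragments at the summit (y axis), recovered from the deposited fold and p, for the same 9 regions (x axis); each point is 1 library. Counts run from 8 fragments at Etv6 and Elf2 to 122 at Elk4.

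At 9 of the 12 promoter regions a peak was detected in both genotypes, at Runx1 only at the internal start. Of the 12 member regions, 7 were detected in all 8 libraries, beside 41.1% of all promoter regions. In fewer Brg1fl/fl than Brg1fl/+ libraries 4 were detected, beside 37.4%: the distal Runx1 start, both Runx3 regions and the 2nd Elf1 region. None was detected in more Brg1fl/fl libraries, beside 11.3%. Per library, 77.1 ± 17.2% of the member promoter regions were detected in Brg1fl/+ and 64.6 ± 4.17% in Brg1fl/fl (SD, n = 4), a difference of -12.5 points, within the spread of the Brg1fl/+ libraries. It was -5.83 points without Brg1fl/+ library 1 and -3.57 points with lists of equal length. The values over all promoter regions were 73.9 ± 20.2% and 64.2 ± 9.21%. Within libraries 1 and 2 the member value was 25.0 points lower in Brg1fl/fl (87.5% and 62.5%), and within libraries 3 and 4 it was 66.7% in both genotypes.

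**Figure D4:**
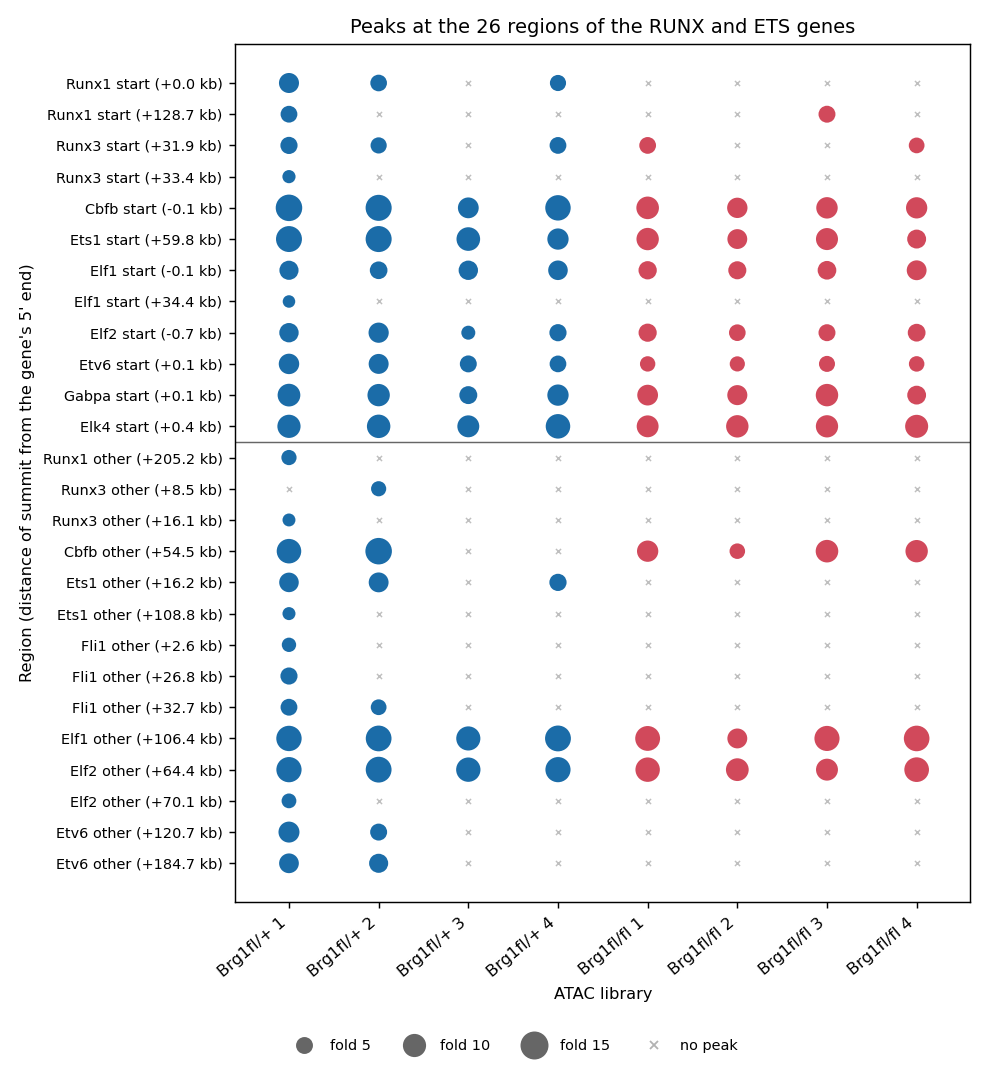
Peaks at the 12 promoter regions (above the line, named start) and 14 other regions (below) of the members in each ATAC library; the area of a dot is proportional to the deposited fold, a cross marks no peak, and kb are distances of the summit from the gene's 5′ end. Brg1fl/+ library 1 has a peak at 25 of the 26 regions, and no region is detected in all libraries of one genotype and none of the other. Over all genes, all Brg1fl/+ and no Brg1fl/fl libraries detected 0.165% of promoter regions and 0.44% of other regions. The reverse held for 0.00968% and 0.168%.

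Away from the promoters, the regions detected in every library were those at the start of another gene. Of the 14 other regions, 12 lay in introns of a member and 2 downstream of one, and 4 overlapped the promoter of another gene. The region downstream of Elf1 is the promoter of Sugt1 (chr14:79587204-79587973), with folds of 14.1, 14.5, 12.8 and 14.6 in Brg1fl/+ and 13.5, 8.67, 13.8 and 14.4 in Brg1fl/fl libraries 1 to 4. Its centred difference was 0.03 (SE 0.12, adjusted p = 0.921 with limma). An Elf2 intron holds the promoter of 4930577N17Rik (chr3:51276083-51276829), with folds of 13.9, 14.6, 13.0 and 13.9 and of 13.1, 11.3, 10.5 and 13.3, and a centred difference of 0.00 (SE 0.12, adjusted p = 0.997 with limma). These 2 differences were the closest to 0 of the 9 tested. Downstream of Cbfb, the promoter of D230025D16Rik was detected in 2 Brg1fl/+ and 4 Brg1fl/fl libraries, and a Fli1 intron region at Gm38346 in 2 Brg1fl/+ libraries only.

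The largest difference in detection away from promoters was in an Ets1 intron. The region (chr9:32652042-32652537, 16163 bp downstream of the 5′ end) was detected in Brg1fl/+ libraries 1, 2 and 4, with folds of 8.38, 8.65 and 6.50 on 23, 17 and 11 fragments, and in 0 of 4 Brg1fl/fl libraries. These are the 3 libraries that also had the distal Runx1 peak, and this region too was detected in 0 libraries with lists of equal length, its peaks standing at positions 8365, 7275 and 6464. A pair of intronic Etv6 regions was detected in Brg1fl/+ libraries 1 and 2 only, with folds of 9.64 and 6.31 in the first and 8.53 and 7.98 in the second. The other intronic regions of Runx1, Runx3, Elf2, Fli1 and Ets1 were each called in 1 Brg1fl/+ library, with folds from 3.67 to 6.41. At Fli1, which encodes a factor close in sequence to Erg, the 3 intronic regions were the only peaks in or within 10 kb of the gene.

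Over the 14 other regions, 2 were detected in all 8 libraries, beside 24.7% of all other regions. In fewer Brg1fl/fl than Brg1fl/+ libraries 11 were detected, beside 50.9%, and 1 in more, beside 16.4%. The same 11 were detected in Brg1fl/+ libraries only, beside 38.8%. All 10 regions that lie at no other gene's promoter are among them, but 9 of these 10 were detected in Brg1fl/+ library 1, which has the longest list, and 6 in that library alone. Without that library only 8 of the 14 regions remained, of which 5 were detected in fewer Brg1fl/fl libraries and 1 in more. The share of the 14 regions detected was 92.9%, 57.1%, 14.3% and 21.4% in Brg1fl/+ libraries 1 to 4 and 21.4% in each Brg1fl/fl library. Brg1fl/+ libraries 1 and 2 have the 2 longest lists. Within libraries 1 and 2 it was 75.0% in Brg1fl/+ and 21.4% in Brg1fl/fl, and within libraries 3 and 4 it was 17.9% and 21.4%. With each list restricted to its best 6271 peaks by q, the length of the shortest, 3 other regions remained. Of these, 0 were detected in fewer and 1 in more Brg1fl/fl libraries. Of the 7 promoter regions that remained, 1 was in fewer (Etv6, in 3 Brg1fl/+ and 1 Brg1fl/fl libraries) and 1 in more (Elf1, in 3 and 4). The shares over all regions under this restriction are not given here, so these counts have no general rate beside them.

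**Figure D5:**
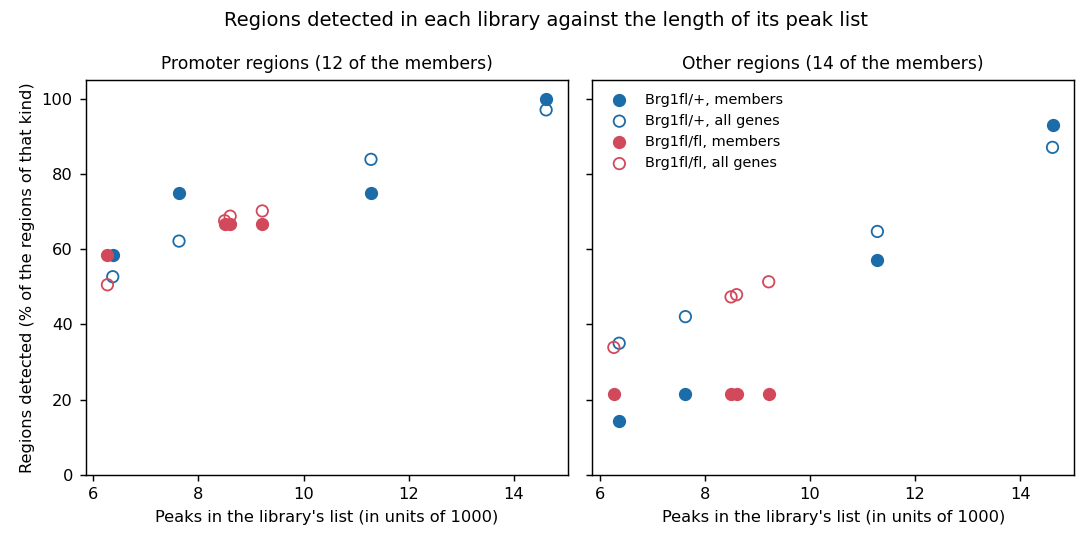
Share of regions detected in a library (y axis, %) against the number of peaks in its list (x axis, in units of 1000 peaks), for promoter regions (left) and other regions (right); filled points are the members, open points all genes. The shares of all genes rise with list length, and at 6271 to 9216 peaks the members' other regions sit at 14.3% to 21.4% in both genotypes.

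The other genes of these families and their partners were counted by their best promoter region. Of 28 genes (7 RUNX family and partner genes, 19 other ETS genes and 2 GABP partner genes), 6 had a promoter region detected in all 8 libraries, 12 in some and 10 in none. The 6 were Cbfa2t2, Tle1 and Tle4, corepressors, the ETS gene Etv5, and Gabpb1 and Gabpb2. None of the 6 passed the limma threshold. All 6 centred differences were above 0, from 0.04 at Etv5 to 0.38 at Gabpb2, beside 2558 of all 4593 regions tested. As at the members, the sign of a small difference can turn without centring, under which the median over all regions was -0.17. At Tle4, Gabpb2 and Gabpb1 the centred differences were 0.35, 0.38 and 0.35, with limma p of 0.00618, 0.0129 and 0.0175 before adjustment. The limma adjusted p values there were 0.0868, 0.115 and 0.133. Of all 4593 regions, 1015 had an unadjusted limma p under 0.05. Of the 28 genes, 9 were detected in fewer Brg1fl/fl libraries and 1 in more. Over all promoter regions, each with a peak in at least 1 library, 41.1% were detected in all 8 libraries, 37.4% in fewer Brg1fl/fl libraries and 11.3% in more. These shares have another base, since the 28 genes include the 10 without a peak and each was counted by its best region. Only Etv3 and Etv4 differed by 2 libraries, each with a peak in Brg1fl/+ libraries 1 and 2 and in no Brg1fl/fl library, with folds of 5.35 and 4.90 at Etv3 and of 6.63 and 5.33 at Etv4. These are again the libraries with the longest lists, and the part of list length was not tested.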

How the data were processed

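ATAC-seq peak lists of 8 libraries were used, 4 Brg1fl/+ and 4 Brg1fl/fl, grouped by their labels. By the study's methods, the authors mapped reads to mm10 (Bowtie2) and ran MACS2 once per library, with versions and options not given in the sources used here. The deposited lists give a fold (ratio) of the summit over local background and −log10 p and −log10 q values, all of which move with depth. The lowest −log10 q was 1.31. RNA-seq samples (8) and the authors' read coverage were not analysed here.

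Overlapping and adjacent peaks were merged, and a region was detected with at least 1 bp of overlap. Start sites came from GENCODE M21. Fragments at summits were solved from fold and p to within 0.002 of the deposited −log10 p. Heights were log2 folds without a pseudocount, centred per library and tested with limma 3.58.1 (R 4.3.3) with genotype alone in the model. Detection was described with no test. Other steps ran in Python 3.11.15 (pandas 2.3.3, numpy 2.4.6, matplotlib 3.10.9, scipy 1.17.1). Merging, fragment recovery and the limma step were tested on simulated data. The small number of libraries and 18 to 30 fragments at the median summit limit the precision, and p-values measure only the spread between these libraries.

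The members and lists were chosen with earlier results of these data known. The text names all 10 members with every promoter region, other regions detected in all 8 libraries or differing by 3 or more libraries between genotypes, other family genes past the threshold or differing by 2 or more libraries, genes that share a promoter, and the 3 promoters most like that of smallest p. Further intronic regions named by gene, the fully detected partner genes and a few regions at other promoters were chosen after their values were seen. Alternatives were stricter q, lists of equal length, 50% cover, region centres, protein-coding starts, joined or averaged libraries, other scalings, regions in at least 3 libraries of each genotype, a variance trend, a replicate block and each library left out. Some marker genes are not reported here.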

Additional observations from a re-analysis of the deposited data

Results flagged for a closer look

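In groups of 4 libraries, 22 sets of values were taken to look for a library far from the others (Dixon's test). Chance flags about 1 in 20. The share of other regions detected in Brg1fl/fl, 21.4% in each library, has no spread and could not be checked. The test flagged 3. Brg1fl/fl library 2, which has the shortest list, detected 58.3% of the member promoter regions and the other Brg1fl/fl libraries 66.7% each, a difference of 1 region. With the other values tied, any difference is flagged, so the rate of 1 in 20 does not hold for this flag. Brg1fl/+ library 3 had a centred log2 height of -0.58 at the Gabpa promoter, against -0.29 to -0.28 in the other Brg1fl/+ libraries. Brg1fl/fl library 4 had -0.53 at the Ets1 promoter, against -0.12 to -0.05 in the other Brg1fl/fl libraries. The causes were not tested.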

How the results depend on the processing

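No member region was called by limma under any alternative in which it had a value, and the differences at Etv6, Cbfb and Ets1 stayed below 0 in these (Etv6 -0.50 to -0.18, adjusted p 0.0651 to 0.701). The Etv6 and Elf2 promoters had no value with −log10 q of at least 5, where a library lost its peak. The 135 calls over all regions became 447 with recovered fragments (130 lower, 317 higher), 291 with regions in at least 3 libraries of each genotype (184 and 107), 253 with a variance trend, 27 with averaged libraries and 0 with libraries 3 and 4 alone (569 at an unadjusted p under 0.05). Quantile normalization gave 61 lower and 50 higher, peaks of −log10 q of at least 5 gave 70 and 63, and leaving out 1 library gave 40 to 235 calls, each omission moving the count by over 1.5 times (40 without Brg1fl/+ library 2, 235 without Brg1fl/+ library 3). The difference in percent of member promoter regions detected, -12.5 points, was -3.57 with lists of equal length and -5.83 without Brg1fl/+ library 1. Member promoter regions in fewer Brg1fl/fl libraries became 1 with lists of equal length and 2 to 5 with a library left out (2 without Brg1fl/+ library 1). Those in more Brg1fl/fl libraries became 1 with −log10 q of at least 5, 2 with at least 10, 1 with equal lists, 2 with 50% cover and 0 to 1 with a library left out. Member other regions in fewer Brg1fl/fl libraries became 7 and 4 with −log10 q of at least 5 and 10, 0 with equal lists and 5 to 11 with a library left out. Those in more became 2 with 50% cover. The percent of member other regions detected, 25.0 points lower in Brg1fl/fl, became 16.7 points higher with equal lists.

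Differences that changed sign, none past the threshold, were as follows. Without centring they were -0.11 at Elk4, -0.034 at Elf1, -0.0717 at Gabpa, -0.0225 at Elf2, -0.18 at the Sugt1 region of Elf1 and -0.20 at the 4930577N17Rik region of Elf2. With libraries 3 and 4 alone they were -0.0586 at Elk4, -0.0249 at Elf1 and -0.17 at the 4930577N17Rik region. The Sugt1 region gave -0.0023 with libraries 1 and 2 alone and -0.023 to 0.13 with a library left out. The 4930577N17Rik region gave -0.0936 with recovered fragments, -0.0048 with −log10 q of at least 5, -0.0162 with quantile normalization and -0.0456 to 0.0817 with a library left out. The causes were not tested.

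Replicate numbers are shared between the genotypes in the labels, but same-numbered libraries did not deviate together (correlations 0.01, -0.09, -0.04 and -0.05). The replicate block gave 41 lower and 56 higher calls, 0 of them at members. Each replicate number occurs in both genotypes, so the block cannot change a mean difference between them. The differences in percent detected, -12.5 and -25.0 points, are therefore the same by design.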
